A study of Mus musculus with 8 samples.

Results

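DNA replication licensing and synthesis was followed through 6 genes, Mcm3, Mcm6, Orc2, Prim2, Exo1 and Dtl, in hepatic stellate cells, mesenchymal cells of the liver that store vitamin A and can turn into matrix-producing myofibroblasts. The genes were taken from a list of 41 genes for origin licensing, the replicative helicase, polymerases, nucleotide supply and entry into S phase, by matching mouse Ensembl identifiers to symbols. These 6 were among the 1933 gene rows that the 8 count tables share. The other 35 listed genes, which lie on other chromosomes in GENCODE M21, were not analysed here. The rows with a symbol in that annotation all lie on chromosome 1, so 5 of the 8 roles on the list have a member and the helicase activation, clamp and nucleotide supply groups have none.

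The compared groups were 4 libraries labelled AREL1HSC-KO, a knockout of the ubiquitin ligase gene Arel1 in hepatic stellate cells (called KO below), and 4 libraries labelled AREL1fl/fl, the floxed control (called fl/fl). All the mice were male, were put on a Western diet (21% fat, 20% protein, 50% carbohydrate) at 4 weeks of age for 20 weeks, and were analysed in week 24, and the livers of both groups are labelled as MASH, metabolic dysfunction-associated steatohepatitis. The labels name neither the Cre driver nor whether fl/fl mice carried Cre, and 3 of the 4 KO libraries carry AREL2, AREL3 or AREL4 in the genotype field, where the titles, which were followed, have AREL1. Whether libraries come from separate mice is not stated, and the p-values thus cover spread between libraries that may be technical. The cells were isolated, per the labels, by liver digestion and density gradient, and their purity was judged by microscopy. The names of the deposited tables use other group terms, Sg for the KO libraries and ctrl for the fl/fl libraries, which the labels do not explain, so the source of the cells and the kind of knockout are given as labelled and were not checked. Arel1 is not in the rows used, so the knockout was not checked.

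Origin licensing loads the MCM helicase onto DNA before S phase. The origin recognition complex, of which Orc2 is a subunit, marks the site, and a ring of MCM subunits that includes Mcm3 and Mcm6 is placed around the DNA and later unwinds it. Primase, whose large subunit is encoded by Prim2, then makes the RNA primers that DNA polymerase extends. Exo1 is an exonuclease used in mismatch repair and in the processing of DNA ends, and Dtl is the substrate receptor of a ubiquitin ligase that removes the licensing factor Cdt1 in S phase. Many genes of this set are known targets of E2F transcription factors. Quiescent stellate cells divide little, and activated ones proliferate.

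Of the 6 replication genes, 4 were higher in KO than in fl/fl and none was lower (edgeR quasi-likelihood test, adjusted p under 0.05 over the 420 genes tested). Mcm3 and Mcm6 rose by 15.3% and 15.1%, Orc2 by 7.90% and Exo1 by 6.66%. Prim2 and Dtl did not pass the test, with differences of 3.06% and 3.21%. Among all 420 genes 37.6% changed, 18.3% higher and 19.3% lower. The median log2 fold change was 0.101 over the 6 genes and 0.0034 over all 420. All 6 replication genes passed the filter on low counts. These are bulk libraries, in which more or fewer cells in S phase and more or less RNA per cell cannot be told apart.

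Gene-assigned reads numbered 19271004 to 25165289 in KO libraries and 17619387 to 19663030 in fl/fl libraries, and the shared rows held 3.20% to 3.28% of them. Unmapped reads made up 1.44% to 1.58% of reads in KO and 1.04% to 1.19% in fl/fl, no-feature reads 3.93% to 4.14% in KO and 4.30% to 4.34% in fl/fl, and TMM factors were 1.0045 to 1.02 in KO and 0.980 to 0.996 in fl/fl. All 3 measures separated the groups, and their part in the results was not tested. Among fl/fl libraries, replicate 4 differed most from the rest (chi-square 3.37 to 3.47 per degree of freedom, against 1.39 to 1.86 among those others). Fold changes without that library are also given for Mcm3, Mcm6 and Dtl, as are the within-genotype correlations. Levels are given as CPM, gene counts scaled by the library's gene-assigned reads and edgeR's TMM factor. The TMM factor was computed on the 420 genes tested alone, of which 37.6% changed, and not on a whole genome. Of 17 stellate and mesenchymal markers 3 were in the rows. They were Col3a1 (439 ± 0.801 CPM in KO and 485 ± 16.3 in fl/fl), Col5a2 (589.5 ± 5.02 in KO and 673 ± 6.82 in fl/fl) and Dpt (6.76 ± 0.0922 in KO and 18.7 ± 2.78 in fl/fl; SD, n = 4 each). All 3 were lower in KO, where 19.3% of the 420 genes tested were lower. Their summed level, mostly Col3a1 and Col5a2, was 1030 to 1040 CPM in KO and 1150 to 1210 CPM in fl/fl. The part of these markers in the results was not tested. Lrat, Des, Reln and the other markers of stellate cell identity on the list were not in the rows, so the labelled cell type was not checked on them. Markers of other cells that are reported here were at or near 0, namely Serpinc1 of hepatocytes (0.286 to 0.662 CPM in KO, 0.343 to 0.627 in fl/fl), Cd247 of T cells (at most 0.103 in KO and 0.0515 in fl/fl) and Pkhd1 of cholangiocytes (0 in KO and at most 0.0578 in fl/fl), and Xcl1 had no read. Macrophage, endothelial and mesothelial markers were not in the rows.

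Promoters are shown for the members with an entry in the RefSeq promoter table (GRCm38.p6), from 250 bases before to 50 after the annotated start, so that the letters of the helicase genes, which changed most, can be read beside those of Orc2 and Dtl. Of the 6 genes, Mcm3, Mcm6, Orc2 and Dtl matched by symbol. Mcm3 lies at chr1:20820263-20820562, Mcm6 at chr1:128359656-128359955, Orc2 at chr1:58505060-58505359 (the first of 2 listed starts) and Dtl at chr1:191575495-191575794, each read on the minus strand, 5′ to 3′. Capitals mark matches to the E2F words TTTCCCGC, TTTGGCGC, TTTCGCGC and TTTGCCGC or to CCAAT, searched on both strands, so that an antisense match is read as its reverse complement (ATTGG for CCAAT).
Mcm3: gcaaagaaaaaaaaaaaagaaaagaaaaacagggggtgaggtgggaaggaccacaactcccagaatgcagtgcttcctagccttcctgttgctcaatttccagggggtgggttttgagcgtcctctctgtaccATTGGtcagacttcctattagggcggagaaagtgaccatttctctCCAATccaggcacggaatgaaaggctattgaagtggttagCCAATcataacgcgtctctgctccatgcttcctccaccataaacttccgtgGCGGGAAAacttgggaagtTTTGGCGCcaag
Mcm6: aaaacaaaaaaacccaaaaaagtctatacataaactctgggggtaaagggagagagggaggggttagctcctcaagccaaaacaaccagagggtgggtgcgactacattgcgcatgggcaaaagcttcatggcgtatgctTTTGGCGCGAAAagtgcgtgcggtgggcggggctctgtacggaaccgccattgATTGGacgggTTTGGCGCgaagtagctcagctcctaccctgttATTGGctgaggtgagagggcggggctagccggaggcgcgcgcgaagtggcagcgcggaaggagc
Orc2: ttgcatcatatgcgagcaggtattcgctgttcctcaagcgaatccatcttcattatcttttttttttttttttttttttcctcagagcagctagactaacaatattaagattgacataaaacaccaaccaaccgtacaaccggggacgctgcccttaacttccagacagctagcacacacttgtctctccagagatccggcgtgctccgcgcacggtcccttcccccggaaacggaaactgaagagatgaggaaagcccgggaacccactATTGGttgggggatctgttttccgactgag
Dtl: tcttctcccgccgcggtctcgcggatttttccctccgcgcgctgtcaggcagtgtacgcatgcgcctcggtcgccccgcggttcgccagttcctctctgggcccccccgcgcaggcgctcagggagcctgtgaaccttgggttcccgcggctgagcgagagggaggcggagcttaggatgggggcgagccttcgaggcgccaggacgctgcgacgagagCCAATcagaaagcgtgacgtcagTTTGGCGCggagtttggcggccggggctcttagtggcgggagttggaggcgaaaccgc

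An E2F word was found 2 times in the Mcm3 promoter, 3 times in that of Mcm6 and 1 time in that of Dtl. The first 2 matches of Mcm6 overlap each other on opposite strands and appear as 1 run of capitals. Neither Orc2 promoter held these words. Of 32851 promoters of the same length in the table, 744 (2.26%) held at least 1 E2F word. CCAAT was found in all 4 genes, 3 times in Mcm3, 2 times in Mcm6 and 1 time in Dtl and in each Orc2 promoter, against 37.4% of all promoters. The word TTTGAA, known from promoters of late cell cycle genes, was in none of these promoters and in 17.9% of all. A match is a description of letters and not of binding.

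**Figure D1:**
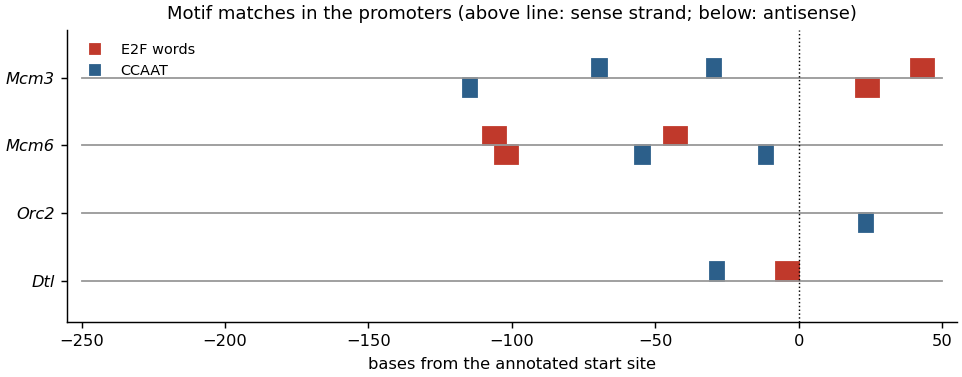
Positions of E2F words and CCAAT in the promoters of 4 replication genes, in bases from the annotated start site (dotted line), with sense matches above and antisense matches below each line. E2F words lie in the promoters of Mcm3, Mcm6 and Dtl, and CCAAT in those of all 4 genes.

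The MCM helicase subunits had the largest differences of the 6 genes. Mcm3 (ENSMUSG00000041859) had 447, 433, 427 and 449 CPM in KO replicates 1 to 4, against 376, 371, 371 and 403 CPM in fl/fl replicates 1 to 4. The groups did not overlap, and fl/fl replicate 4 was the fl/fl library nearest to KO. The means were 439 ± 10.4 CPM in KO and 381 ± 15.1 CPM in fl/fl (SD, n = 4 each; log2 fold change 0.21, SE 0.026, edgeR adjusted p = 3.68e-07). Mcm6 (ENSMUSG00000026355) had 453, 445, 448 and 442 CPM in KO, against 380.3, 378, 389 and 407 CPM in fl/fl. Its KO libraries lay within a narrow band and its fl/fl libraries below it, again with replicate 4 highest. The means were 447 ± 4.52 CPM in KO and 389 ± 13.2 CPM in fl/fl (log2 fold change 0.20, SE 0.024, edgeR adjusted p = 1.06e-07). With fl/fl replicate 4 left out, Mcm3 had a log2 fold change of 0.23 and Mcm6 of 0.22. Both genes passed the test under all 17 alternatives tried, with log2 fold changes of 0.19 to 0.26 for Mcm3 and 0.19 to 0.25 for Mcm6. Of the 420 genes, 32 were called with a larger increase than Mcm3.

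Because Mcm3 and Mcm6 belong to the same ring, their ratio was followed within each library, where it does not depend on scaling. The log2 ratio of Mcm3 to Mcm6 counts was -0.027 ± 0.038 in KO and -0.030 ± 0.025 in fl/fl (SD, n = 4 each). The groups overlapped, and the difference of 0.0036 did not pass the test (two-sided exact permutation p = 0.943, where 4 against 4 cannot go below 0.0286). The KO libraries ran from -0.069 to 0.022 on this scale and the fl/fl libraries from -0.066 to -0.0145, so a difference in response between the 2 subunits was not detectable within this spread.

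Orc2 was the origin recognition gene in the rows. Orc2 (ENSMUSG00000026037) had 86.0, 88.4, 83.8 and 93.0 CPM in KO, against 78.0, 83.4, 81.2 and 83.0 CPM in fl/fl. The lowest KO library, replicate 3, stood just above the highest fl/fl library, replicate 2. The means were 87.8 ± 3.93 CPM in KO and 81.4 ± 2.45 CPM in fl/fl (SD, n = 4 each; log2 fold change 0.11, SE 0.035, edgeR adjusted p = 0.0133). The exons of Orc2 overlap those of Nif3l1 on the other strand in GENCODE M21. Its forward and reverse counts together exceeded the either-strand count by 33.3%. Since the libraries do not separate the strands, reads in the overlap cannot be assigned to either gene. The either-strand count leaves them out, and the forward and reverse counts can hold reads of Nif3l1. Its call was lost with reverse-strand counts (edgeR adjusted p = 0.326), without KO replicate 4 (0.068) and without fl/fl replicate 1 (0.0774), within a range of 0.000458 to 0.326 over the alternatives.

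Prim2, for the large primase subunit, did not pass the test. Prim2 (ENSMUSG00000026134) had 69.0, 69.7, 71.0 and 71.2 CPM in KO, against 68.5, 66.4, 68.0 and 69.4 CPM in fl/fl. KO replicate 1 lay below fl/fl replicate 4, so the groups overlapped. The means were 70.2 ± 1.05 CPM in KO and 68.1 ± 1.25 CPM in fl/fl (SD, n = 4 each; log2 fold change 0.044, 95% interval -0.024 to 0.11, edgeR adjusted p = 0.314). With upper-quartile scaling Prim2 passed the test (log2 fold change 0.094, edgeR adjusted p = 0.0274, in a range of 0.0274 to 0.984), and with forward-strand counts its log2 fold change was -0.0016.

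Exo1, the exonuclease gene, had the smallest change among those that passed. Exo1 (ENSMUSG00000039748) had 67.4, 64.5, 69.1 and 64.4 CPM in KO, against 60.6, 62.0, 62.3 and 64.0 CPM in fl/fl. The groups did not overlap, but KO replicate 4 and fl/fl replicate 4 stood next to each other. The means were 66.4 ± 2.30 CPM in KO and 62.2 ± 1.40 CPM in fl/fl (SD, n = 4 each; log2 fold change 0.093, SE 0.036, edgeR adjusted p = 0.0398). The call was lost under 10 of the 17 alternatives. They were DESeq2 (adjusted p = 0.0839), no filter on low counts (0.0561), forward-strand counts (0.292), reverse-strand counts (0.0677), the replicate block (0.0515), and leaving out KO replicate 1 (0.113), KO replicate 3 (0.156), fl/fl replicate 1 (0.135), fl/fl replicate 2 (0.0718) or fl/fl replicate 3 (0.0736). The forward and reverse columns held 5265 and 5178 of the 10443 either-strand reads of Exo1, so the settings with these columns rest on fewer reads. Over all alternatives the edgeR or DESeq2 adjusted p ranged between 0.00162 and 0.292, and the log2 fold change between 0.070 and 0.14.

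Dtl, whose product limits licensing to once per cycle, did not pass the test over the 8 libraries. Dtl (ENSMUSG00000037474) had 123, 126, 123 and 120.4 CPM in KO, against 115, 118, 117 and 128 CPM in fl/fl. Replicates 1 to 3 of fl/fl lay below every KO library and replicate 4 above all of them. The means were 123 ± 2.41 CPM in KO and 119.6 ± 5.58 CPM in fl/fl (SD, n = 4 each; log2 fold change 0.046, 95% interval -0.018 to 0.11, edgeR adjusted p = 0.259). Dtl passed the test when fl/fl replicate 4 was left out (log2 fold change 0.077, edgeR adjusted p = 0.0194), and so it did with upper-quartile scaling (0.0133), in a range of 0.0133 to 0.66.

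**Figure D2:**
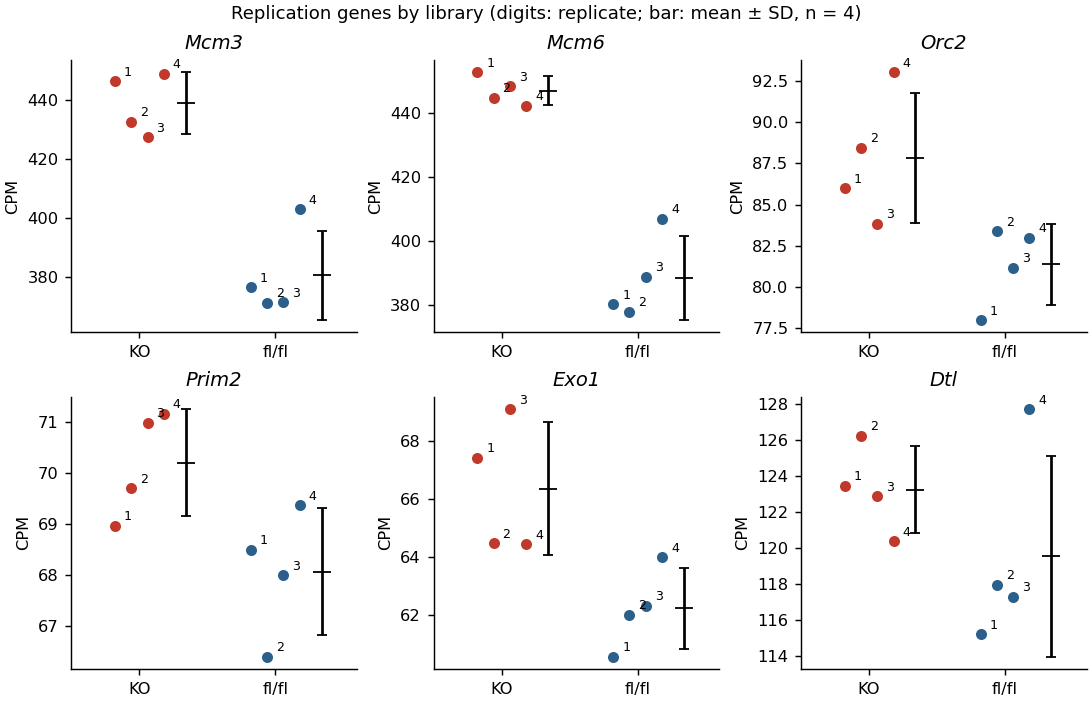
CPM of the 6 replication genes in each library, KO left and fl/fl right, with the replicate number beside each point and the mean ± SD (n = 4) as a bar; the axes differ between panels and do not start at 0. KO libraries lie above all fl/fl libraries in Mcm3, Mcm6, Orc2 and Exo1, and fl/fl replicate 4 is the highest fl/fl library in every panel except that of Orc2.

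The groups did not overlap in 4 of the 6 genes, and in 31.4% of the 420 tested. Summed over the 6 genes, the level was 1245, 1227, 1223 and 1240.3 CPM in KO replicates 1 to 4, against 1079, 1079, 1089 and 1154 CPM in fl/fl. The sum is mostly Mcm3 and Mcm6. Replicate 4 of fl/fl was higher than the mean of the other fl/fl libraries in each of the 6 genes, by 9.34% in Dtl, 8.01% in Mcm3, 6.43% in Mcm6, 3.82% in Exo1, 2.64% in Orc2 and 2.58% in Prim2. Without that library 5 of the 6 genes passed the test, all higher in KO. Calls also rose among all genes, where 191 of the 428 tested in that setting passed, 95 higher and 96 lower, against 158 of 420 with all libraries.

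Levels between genes were compared per length, as CPM per kilobase of the longest APPRIS principal transcript in GENCODE M21. In KO, Mcm6 stood at 154 ± 1.55, Mcm3 at 145 ± 3.45, Prim2 at 35.5 ± 0.531, Dtl at 29.3 ± 0.572, Orc2 at 24.7 ± 1.11 and Exo1 at 8.51 ± 0.294 CPM per kilobase (SD, n = 4). In fl/fl the order was the same, with Mcm6 at 134 ± 4.52, Mcm3 at 126 ± 4.99, Prim2 at 34.5 ± 0.631, Dtl at 28.4 ± 1.33, Orc2 at 22.9 ± 0.688 and Exo1 at 7.98 ± 0.18. The helicase subunits thus stood several fold above the other genes, and Exo1 was lowest. The order depends on the transcript length used. Per kilobase of all annotated exons Orc2 (22.8 in KO and 21.1 in fl/fl) came before Prim2 (11.8 in KO and 11.5 in fl/fl) and Dtl (8.99 in KO and 8.72 in fl/fl), and Mcm3 (117 in KO and 101 in fl/fl) before Mcm6 (95.8 in KO and 83.3 in fl/fl).

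To compare the genes with each other free of scaling, the log2 ratio of counts was taken within each library for all 15 pairs of the 6 genes, a comparison added after their values were seen. The groups did not overlap in 5 pairs, those of Mcm3 or Mcm6 with Prim2 or Dtl and that of Mcm6 with Exo1. The ratio of Mcm6 to Prim2 was 2.67 ± 0.033 in KO and 2.51 ± 0.033 in fl/fl on the log2 scale (SD, n = 4 each), a difference of 0.158. In the 5 pairs the differences were 0.111 to 0.162, each with a two-sided exact permutation p of 0.0286, the smallest possible. After adjustment over the 15 pairs this became 0.0857 by the exact permutation test, so none passed. With 4 libraries a group, 5 pairs at the smallest possible p cannot pass this adjustment whatever their size, so whether the MCM genes changed more than Prim2, Dtl or Exo1 could not be decided by it.

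**Figure D3:**
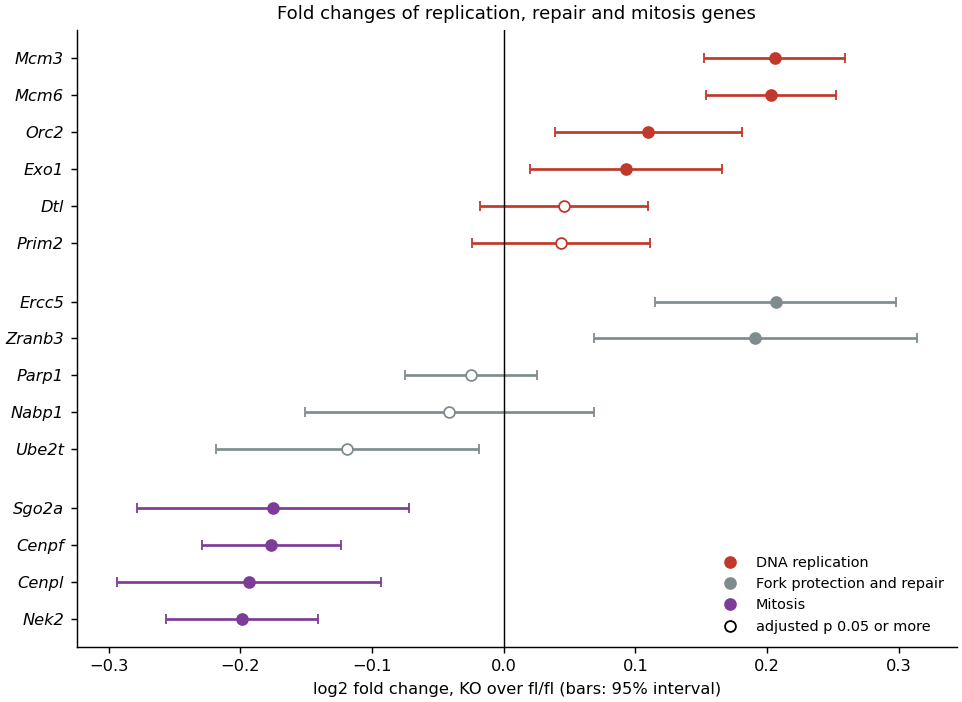
Log2 fold changes, KO over fl/fl, of 6 replication genes, 5 genes of fork protection and repair and 4 mitosis genes, with 95% intervals from the edgeR fit and open circles where the adjusted p was 0.05 or more. The 6 replication genes lie right of 0 and the 4 mitosis genes left of it, all 4 filled.

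The other genes of the pathway were read from lists by role. Of 60 further replication genes and 27 E2F, RB and DREAM regulators, none was in the rows. Of 70 mitosis genes 4 were in the rows, and all 4 fell, where 19.3% of the 420 genes tested were lower. Cenpf, of the outer kinetochore, had 161, 165, 165 and 166 CPM in KO, against 191, 184, 183 and 183 CPM in fl/fl, and fell by 11.5% (edgeR adjusted p = 3.38e-06). Nek2, a centrosomal kinase, had 122, 122, 127 and 129.9 CPM in KO, against 144, 142, 146 and 142 CPM in fl/fl, and fell by 12.9% (edgeR adjusted p = 2.15e-06). Cenpl, of the inner kinetochore, fell by 12.6% to 27.1 ± 1.31 CPM in KO, against 30.9 ± 0.945 CPM in fl/fl (SD, n = 4 each; edgeR adjusted p = 0.00262). Sgo2a, a shugoshin that protects centromere cohesion, fell by 11.5% to 23.6 ± 0.796 CPM in KO, against 26.6 ± 0.692 CPM in fl/fl (edgeR adjusted p = 0.00716). The groups did not overlap in any of the 4 genes, as in 31.4% of all genes tested. Nek2 overlaps Gm38037 and Sgo2a overlaps Kctd18 on the other strand. Their either-strand counts leave out reads in the overlap, and their forward and reverse counts can hold reads of those other genes. The call was lost for Cenpl with forward-strand counts (edgeR adjusted p = 0.323, in a range of 0.000266 to 0.323) and for Sgo2a with upper-quartile scaling (0.0606, in a range of 6.17e-06 to 0.0606).

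The replication and mitosis genes were also set against each other within each library, where scaling cancels. Taken as a log2 ratio of counts within a library, each of the 6 replication genes over each of the 4 mitosis genes was higher in KO, and the groups did not overlap in any of the 24 ratios. The differences ran from 0.22 to 0.40 on the log2 scale, that is 1.17-fold to 1.32-fold, and from 0.185 to 0.44 when any single library was left out. The ratio of Mcm3 to Nek2 was 1.81 ± 0.049 in KO and 1.41 ± 0.070 in fl/fl. These ratios share genes and were taken after the mitosis genes had been seen to be lower in KO, so they are given as a description. Their direction was set in advance, since every replication gene had a positive and every mitosis gene a negative log2 fold change. For Mcm3, Mcm6, Orc2 and Exo1 the separation was set as well, because neither they nor the mitosis genes overlapped between the groups. The share of separated ratios among all gene pairs was not taken.

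Of 47 genes for fork protection and replication-coupled repair 5 were in the rows, of which 2 rose and 3 did not pass. A share of 2 in 5 is near the 37.6% that changed among all genes tested, so it is no result about these genes. Ercc5, the nucleotide excision repair endonuclease XPG, had 39.0, 40.9, 41.7 and 39.3 CPM in KO, against 34.7, 35.3, 32.5 and 37.0 CPM in fl/fl, and rose by 15.4% (edgeR adjusted p = 0.000624), with no overlap between the groups. Zranb3, which remodels stalled forks, rose by 14.2% to 23.6 ± 1.69 CPM in KO, against 20.7 ± 1.13 CPM in fl/fl (SD, n = 4 each; edgeR adjusted p = 0.0121). It overlaps Gm28800 on the other strand, the groups overlapped, and it lost its call with forward-strand counts (edgeR adjusted p = 0.0967) and without KO replicate 1 (0.0514), KO replicate 2 (0.0528), KO replicate 3 (0.0529) or fl/fl replicate 1 (0.0643), in a range of 0.00155 to 0.0967. Parp1, which senses DNA breaks, stood at 208 ± 2.44 CPM in KO and 211 ± 3.1 CPM in fl/fl, and Nabp1, a single-strand DNA-binding protein, at 20.4 ± 0.364 CPM in KO and 21.0 ± 0.395 CPM in fl/fl. Ube2t, the ubiquitin-conjugating enzyme of the Fanconi anaemia pathway, stood at 28.5 ± 0.773 CPM in KO and 31.0 ± 1.63 CPM in fl/fl (log2 fold change -0.12, edgeR adjusted p = 0.0546). It passed without fl/fl replicate 1 (0.0231), without KO replicate 3 (0.0487) and, at 0.05 after rounding, with the summed rows as library total, in a range of 0.0231 to 0.458. The median log2 fold change was -0.025 over these 5 genes and -0.19 over the 4 mitosis genes, against 0.101 over the replication genes.

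**Figure D4:**
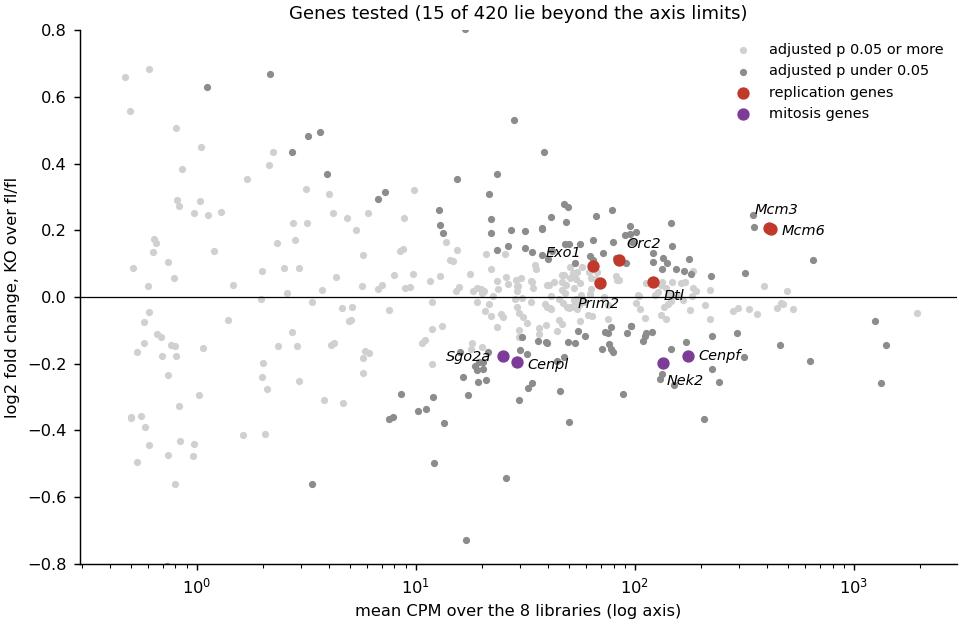
Log2 fold change, KO over fl/fl, against mean CPM (log axis) for the 420 genes tested, with replication genes in red, mitosis genes in purple and 15 genes beyond the axis limits of 0.8. Mcm3 and Mcm6 are the highest of the replication genes on both axes, and the 4 mitosis genes lie below 0.

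The genes whose levels followed Mcm3 and Mcm6 most closely were taken among 247 others with a mean of at least 20 CPM, by Pearson's r over the 8 libraries with the mean log2 CPM of the pair. Among the 5 closest were Lamc1, a laminin gamma chain (r = 0.989), Klf7, a transcription factor (0.987), and Abl2, a tyrosine kinase (0.974). The 2 genotypes form separate clusters, so these values mostly hold the difference between them. On deviations from the genotype means r was 0.886 for Lamc1, 0.878 for Klf7 and 0.875 for Abl2, but this rests on fl/fl replicate 4. Without that library, a calculation added after the values were seen, the within-genotype r was 0.54 for Lamc1, -0.213 for Klf7 and 0.685 for Abl2. Their log2 fold changes were 0.24 for Lamc1, 0.53 for Klf7 and 0.22 for Abl2.

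**Figure D5:**
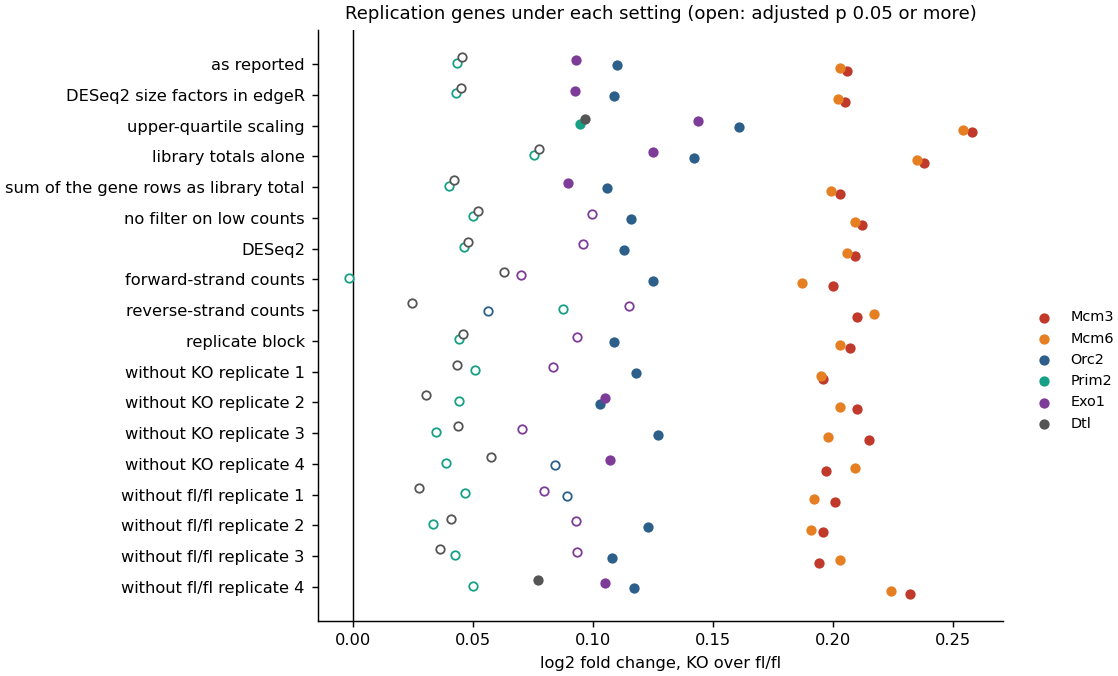
Log2 fold change, KO over fl/fl, of each replication gene as reported and under 17 other settings, with open circles where the adjusted p was 0.05 or more. Mcm3 and Mcm6 stay filled between 0.19 and 0.26, Exo1 is open in 10 settings, and Prim2 crosses 0 with forward-strand counts (-0.0016).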

How the data were processed

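RNA sequencing of 8 libraries (4 KO, 4 fl/fl, grouped by title) was analysed. The authors deposited raw read counts per gene in STAR's format, with either-strand, forward and reverse columns. Per the submitters' processing notes, the tools were fastp, STAR 2.7.10a and DESeq2 1.38.0, and the builds GRCm38 and GRCm39 (annotation release: not given in the sources used here). Each table holds 1933 to 1943 gene rows, part of a genome, and incomplete last lines were left out. Either-strand counts were used, since the kit is named as stranded but no-feature reads of the strand columns stood at a ratio of 1.00 to 1.02. Library totals came from the summary rows: no-feature reads of both strand columns, minus those of the either-strand column counted for each, minus ambiguous reads. This is a lower limit. The upper limit lies 2.51% to 2.57% above it in KO and 2.59% to 2.65% above it in fl/fl. This gap also separated the groups, and its part in the results was not tested.

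Counts were fitted in R 4.3.3 with edgeR 4.0.16 (filterByExpr, 420 genes; TMM; robust quasi-likelihood F test; Benjamini-Hochberg over 420 genes; threshold 0.05). CPM values are scaled to the TMM-adjusted total, and intervals are 95% intervals of the fit. The SE comes from the F statistic. The procedure was also run on simulated counts with known changes and a single spread shared by all genes. Those counts held no deviating library and no batch, so that run does not check the calls made here. Ratios used exact permutation tests. Alternatives were other scalings, totals, filters and strand columns, DESeq2 1.42.0, a replicate block and leaving out each library. For the replication genes other than Orc2, the forward and reverse columns split the either-strand reads about evenly. A setting with either column thus rests on fewer reads, and calls can be lost in it for that reason alone. No pair of libraries within a group agreed within sampling noise (largest chi-square p = 3.68e-07 in KO, 2.11e-07 in fl/fl). At this read depth small differences suffice for a low p, so this does not show that the libraries come from separate mice. The common spread between libraries of a group beyond counting noise, as estimated by edgeR, was a coefficient of variation of 2.53%. No batch is labelled, so a batch that follows genotype cannot be told apart from it. Symbols come from a reference list of gene names and, where it has none, from GENCODE M21. Lengths and overlaps come from GENCODE M21, which holds 1830 of the 1933 shared rows. All genes of the replication list in the rows are named, and genes of the other lists where kept; some genes are not reported here. The members and lists were chosen with earlier results of these data known.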

Additional observations from a re-analysis of the deposited data

Results flagged for a closer look

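A library was picked out where its gap to the nearest other library of its group divided by the group's range passed Dixon's critical value at the 95% level. This was looked for in 36 groups of 4, in which chance gives about 1 in 20, and these groups come from the same 8 libraries. In total 6 were found. In fl/fl replicate 4, Mcm3 reached 402.9 CPM while fl/fl replicates 1 to 3 had 371 to 376 (0.836 of the range), and the sum over the 6 replication genes reached 1154 CPM while those libraries had 1079 to 1089 (0.865). The library fl/fl replicate 1 had Cenpf at 190.8 CPM against 183 to 184 (0.949), Sgo2a at 27.7 CPM against 26.2 to 26.3 (0.941) and gene-assigned reads at 19663030 against 17619387 to 17642249 (0.989). In KO replicate 4, Zranb3 was at 21.1 CPM and in KO replicates 1 to 3 at 24.1 to 24.6 (0.845).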

How the results depend on the processing

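The count of 158 changed genes (77 higher, 81 lower) stayed between 120 and 191 over the alternatives, and was 108 with adjusted p under 0.01. Upper-quartile scaling gave 120 higher and 52 lower, and library totals alone 100 higher and 65 lower. Of the 6 replication genes, 4 changed; the count was 2 with reverse-strand counts, 2 with adjusted p under 0.01, 6 with upper-quartile scaling and 2 to 5 with 1 library left out (lowest without fl/fl replicate 1, highest without fl/fl replicate 4). None was called lower under any of these settings. Their median log2 fold change of 0.101 became 0.152 with upper-quartile scaling and 0.133 with library totals alone, where the median over all genes was 0.0545 and 0.0355. The log2 fold change changed sign for Prim2 with forward-strand counts (-0.0016), for Nabp1 with upper-quartile scaling (0.0094) and forward-strand counts (0.025), and for Parp1 with upper-quartile scaling (0.026), library totals alone (0.0070) and reverse-strand counts (0.027); none of these was called, and the cause was not tested. The difference in the Mcm3 to Mcm6 ratio was -0.0061 with reverse-strand counts and -0.0126 to 0.0176 with 1 library left out. The adjusted p of the 15 ratios between replication genes depends on the family. Adjusted together with the 24 ratios to mitosis genes, 5 of them reached 0.0384 by the exact permutation test, but those 24 were picked after their genes were seen to be lower in KO, and the adjustment over the 15 alone (0.0857) is the one used. Without fl/fl replicate 4 the within-genotype correlation of Klf7 with Mcm3 and Mcm6 was -0.213, against 0.878 with it. With the replicate number as a block 150 genes and 3 replication genes changed, Exo1 being lost. On deviations of log2 CPM from the genotype means, same-numbered libraries correlated at -0.164 to 0.13. No KO library correlated best with the fl/fl library of its own number, so these deviations gave no sign of pairing by number. Only 6 of the 41 genes could be followed, all from 1 chromosome.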
